A study of Danio rerio with 6 samples.

Results

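The proteasome subunit genes of zebrafish (Danio rerio) embryos were compared between wild-type (WT) animals and animals lacking bcas2 (bcas2-KO, the knockout) at 3 days post fertilization. They were taken as all genes whose symbol starts with psma, psmb, psmc, psmd, psme or psmf and a number, with at least 15 counts summed over the libraries. Of 32520 genes in the tables, 54 had such a symbol and 52 had enough counts. The 2 left out were the thymus-type core genes psmb11a and psmb11b, with 0 and 4 counts. The 52 genes comprised 9 genes of the alpha rings and 7 of the beta rings of the core, 5 of the immune core, 11 of the base and 9 of the lid of the regulatory particle, 3 assembly chaperones, 6 activators or inhibitors, and 2 genes whose products are not subunits. Those 2 were psmc3ip, for a recombination cofactor, and psme3ip1, for a protein that binds the activator encoded by psme3. Genes whose symbols are in capitals, PSMA2, PSMD2 and PSMD4, lie outside the naming rule and are not counted; the first 2 were tested and were not called, and PSMD4 was listed at 0.

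The proteasome degrades proteins that carry ubiquitin chains. Its barrel-shaped core is made of alpha rings that form the gate and beta rings that hold the active sites, and the regulatory particle on its end binds, unfolds and feeds in substrates through a ring of ATPases. In the constitutive core psmb5, psmb6 and psmb7 encode the active subunits. Under interferon, and in blood cells of mammals, these are replaced by the immune subunits, which change the peptides made for presentation on major histocompatibility complex (MHC) class I molecules.

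Each library came from a pool of 10 whole embryos sorted by genotype, with 3 WT and 3 bcas2-KO pools. The strain, the bcas2 allele and the clutches of origin are not stated in the sources used here. The labels call the samples biological replicates, so p-values measure the spread between these pools. Gene counts summed to 32822716 to 49526995 per library. The targeted gene bcas2, for a part of the Prp19 complex of the spliceosome, had 28.2 ± 1.06 CPM (counts relative to the scaled library total) in WT and 3.71 ± 0.715 CPM in the knockout (SD, n = 3 pools each). The 5 skeletal muscle markers checked summed to 75595 to 99613 CPM in every library. The 9 lens and photoreceptor markers summed to 408 CPM in WT library 1 and 251 CPM in knockout library 3, and stayed at or under 5.35 CPM elsewhere. Eye RNA thus differed widely between libraries of the same genotype, and the source of this difference was not tested.

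Transcripts of psmb9a and psmb12 of the immune core fell in the knockout. By summed counts psmb13a, psmb9a and psmb12 were 7.03-fold to 22.7-fold lower there and psmb10 was 1.44-fold lower. For psmb8a the ratio of 4.23 rested on WT library 3 and was 1.57 without it, and for psmb13a it was 4.67 without that library. Those of the constitutive core and the regulatory particle differed by less than 1.5-fold in 35 of 36 genes, and psma6l fell. Of the 52 genes, 50 passed the filter on low counts and were tested among 22347 genes with the quasi-likelihood test of edgeR. At a Benjamini-Hochberg adjusted p under 0.05, 5 fell and 0 rose, against a background over all tested genes of 9.01% lower and 10.6% higher, together 19.6%. Of all calls 54.1% were higher, and 39.9% with upper-quartile factors. By DESeq2 7 fell and 0 rose. The 5 were psmb9a and psmb12 of the immune core, psme2 of the activators, psma6l of the alpha ring genes and psmd5 of the chaperones. Among them psmb9a and psmb12 passed the filter on low counts only through WT. At 10% the share of proteasome genes that fell was close to the background. At an unadjusted p under 0.05 there were 15 of 50 genes, against 34.4% of all tested genes. In 23 of the 50 genes (46%) WT and knockout libraries were fully apart in CPM, against 39.4% of all tested genes. The knockout was the lower genotype in 19 of the 50 (38%), against 19.4% of all tested genes. It was the higher in 4 of the 50, against 20.1%.

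**Figure D1:**
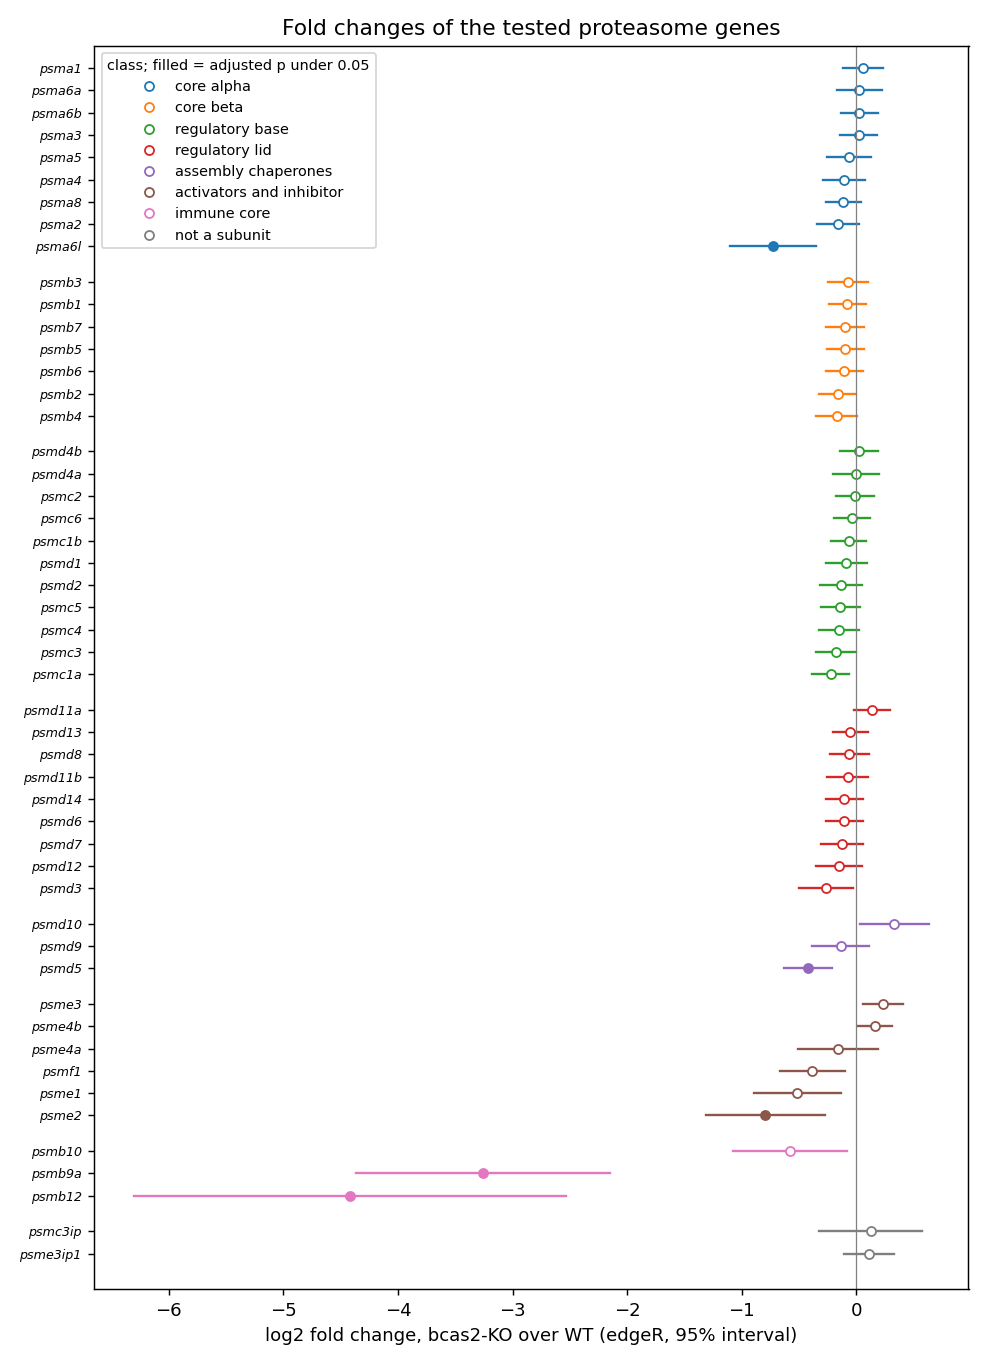
Log2 fold change (bcas2-KO over WT, x axis) with its 95% interval for each of the 50 tested proteasome genes (y axis), by class; filled points have an edgeR adjusted p under 0.05. Most points lie within 0.3 of 0, and psmb12 at -4.42 and psmb9a at -3.26 stand farthest to the left.

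The genes of the immune core were all rare. In FPKM, the deposited values that are also divided by gene length so that genes can be compared, their WT means ran from 0.423 for psmb8a to 4.10 for psmb10, against 206 for psmb5, 132 for psmb6 and 207 for psmb7. The whole immune core summed to 5.28, 8.57 and 12.5 FPKM in WT libraries 1, 2 and 3, and to 3.03, 3.10 and 3.26 FPKM in knockout libraries 1, 2 and 3. As a share of the summed constitutive core this was 0.267%, 0.415% and 0.613% in WT and 0.170%, 0.160% and 0.168% in the knockout. The genotypes did not overlap in this share, and WT library 3 was the highest.

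The gene psmb9a (ENSDARG00000000656) codes for the immune counterpart of psmb6. WT libraries held 35, 41 and 51 counts of it and knockout libraries 4, 2 and 6, or 0.685, 0.961 and 1.53 CPM against 0.0969, 0.0495 and 0.185 CPM. Every WT library was above every knockout library. By edgeR the log2 fold change of -3.26 (SE 0.50) had an adjusted p = 0.0026, and the adjusted p lay between 0.0016 and 0.0197 when 1 library was left out. These fits kept genes by counts over all 6 libraries, which psmb9a passed only through WT, so this range is not separate support. From the summed counts the WT level was 9.50-fold higher, with an exact 95% interval of 5.25 to 18.9 that covers counting error only.

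The gene psmb12 (ENSDARG00000031885) is named beta1t among its RefSeq synonyms. WT libraries held 15, 33 and 28 counts of it and knockout libraries 0, 3 and 0, so that nearly all its reads came from WT. The ratio of the summed levels was 22.7 in favour of WT, with a counting interval of 7.49 to 113. All 3 knockout reads came from library 2; the ratio was 14.5 without knockout library 1 and 16.3 without library 3. By edgeR the log2 fold change of -4.42 (SE 0.84) had an adjusted p = 0.0076. The fitted value is no bound: it was -7.65 without knockout library 2, where no knockout read is left, and -3.83 without knockout library 1. A count of 0 allows up to 0.0727 CPM in knockout library 1 and 0.0923 CPM in knockout library 3. Both psmb9a and psmb12 passed the filter on low counts only through the WT libraries, so the number called among the immune genes tested is not evidence by itself.

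The gene psmb13a (ENSDARG00000001656), listed as beta2ta in RefSeq, had 12, 11 and 24 counts in WT and 2, 3 and 1 in the knockout, or 0.235, 0.258 and 0.718 CPM against 0.0484, 0.0742 and 0.0308 CPM. The gene psmb8a (ENSDARG00000001303), the immune counterpart of psmb5, had 2, 7 and 24 counts in WT and 4, 2 and 1 in the knockout. The genotypes did not overlap for psmb13a, while for psmb8a WT library 1 lay within the bcas2-KO range and WT library 3 held most of the reads. Neither passed the filter. Without it, psmb13a fell (log2 fold change -2.82, adjusted p = 0.0196, edgeR) and psmb8a did not pass (-2.17, adjusted p = 0.181). Only the cut on summed counts applied there, and both genes reached it through their WT reads alone. The psmb13a call is therefore not evidence by itself.

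The gene psmb10 (ENSDARG00000043781), the immune counterpart of psmb7, was the most abundant of the immune core and differed least. It had 2.74, 3.89 and 5.12 CPM in WT and 2.54, 2.55 and 2.74 CPM in the knockout. WT library 1 and knockout library 3 were nearly equal. Its log2 fold change of -0.58 (95% interval -1.07 to -0.081) did not pass (adjusted p = 0.0967, edgeR), and it passed without WT library 1 (0.0157) and in the 4 libraries with low lens and photoreceptor markers (0.0388).

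**Figure D2:**
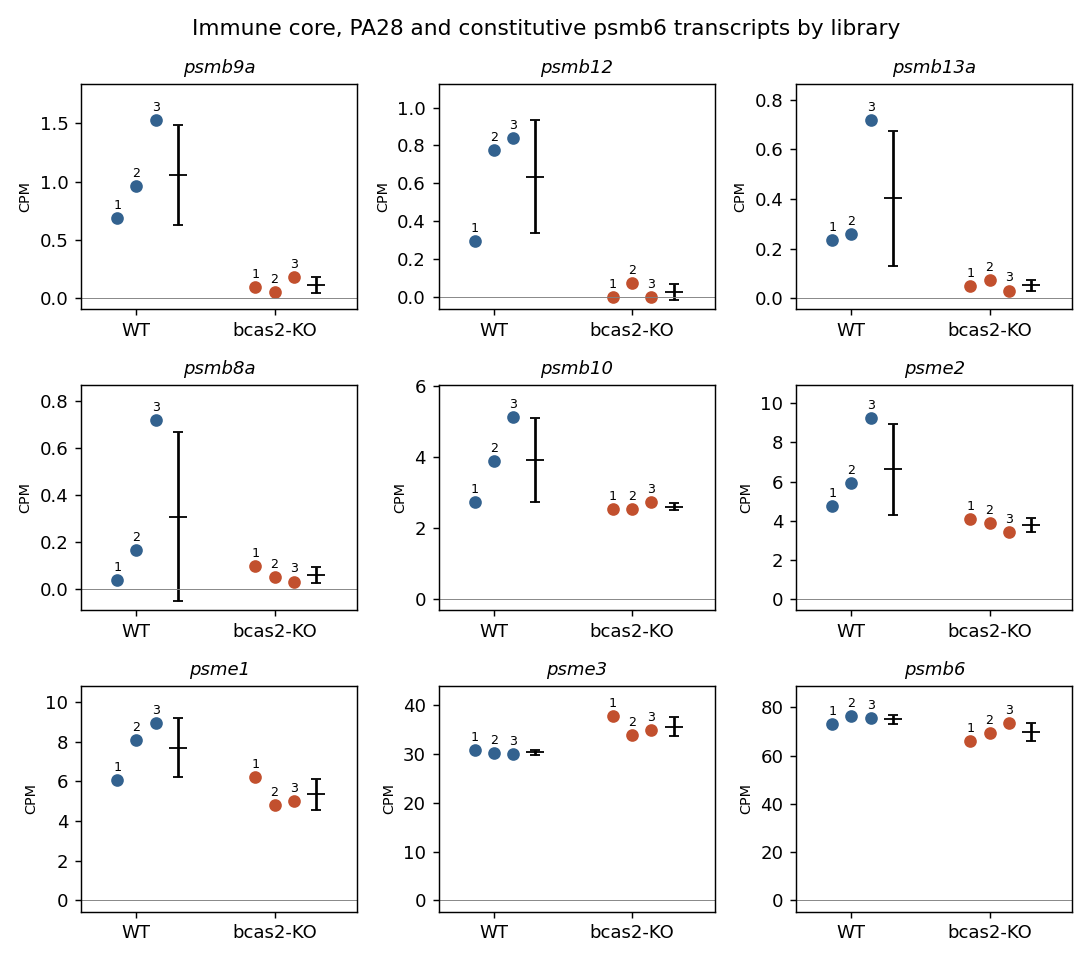
CPM of 9 proteasome genes (y axes include 0) in each WT and knockout library; numbers are library numbers, and bars are mean ± SD over 3 pools. The bcas2-KO points of psmb9a, psmb12 and psmb13a sit near 0 below all WT points, psme3 is higher in the knockout, and psmb6 lies between 66.1 and 76.3 CPM in all 6 libraries.

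The alpha and beta subunits of PA28, the activator that opens the core gate and is induced with the immune subunits in mammals, are encoded by psme1 and psme2, of which psme2 fell. The gene psme2, for PA28 beta, had 4.76, 5.91 and 9.21 CPM in WT and 4.07, 3.88 and 3.41 CPM in the knockout, without overlap. By edgeR its log2 fold change of -0.79 (SE 0.23) had an adjusted p = 0.0413. The gene psme1, for PA28 alpha, had 6.05, 8.09 and 8.91 CPM in WT and 6.23, 4.80 and 5.01 CPM in the knockout. Its genotypes overlapped, because WT library 1 lay below knockout library 1, and it did not pass (log2 fold change -0.52, adjusted p = 0.0583, edgeR; 0.0390 by DESeq2). The psme2 call was lost without WT library 2 or 3 (0.0803 and 0.0859), without knockout library 1, 2 or 3 (0.0970, 0.0993 and 0.126), with a replicate block (0.0535) and on log2 FPKM (0.0561), and it held without WT library 1 (0.0086).

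Over the 6 activator and inhibitor genes the median log2 fold change was -0.27. Those other than PA28 alpha and beta differed in sign. The gene psme3, for the nuclear activator PA28 gamma, had 30.8, 30.1 and 29.9 CPM in WT and 37.7, 33.9 and 34.9 CPM in the knockout. The gene psme4b, for the activator PA200, had 87.5, 86.5 and 90.5 CPM in WT and 99.2, 98.0 and 98.3 CPM in the knockout. Both were higher in each knockout library without passing the test (log2 fold changes 0.23 and 0.16, adjusted p = 0.0659 and 0.124, edgeR). The psme4b paralog psme4a was at 8.45 ± 1.73 CPM in WT and 7.53 ± 0.794 CPM in the knockout. The proteasome inhibitor gene psmf1 had 6.42, 7.31 and 7.81 CPM in WT and 5.89, 5.49 and 5.05 CPM in the knockout (log2 fold change -0.39, adjusted p = 0.0583, edgeR), below WT in each library.

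All 7 genes of the immune core and PA28 alpha and beta were highest in WT library 3. The 12 leukocyte markers checked were highest there as a sum, though singly in only 5 of the 12 (4 were highest in WT library 2 and 3 in a knockout library). They summed to 149, 168 and 188 CPM in WT libraries 1, 2 and 3 and to 91.8 to 109 CPM in the knockout. Most of each sum came from mpx and lcp1, each highest in WT library 3. The skeletal muscle markers also summed highest in WT library 3, to 99613 CPM. Of the 12 leukocyte markers, 6 fell and 0 rose, against 9.01% lower and 10.6% higher over all tested genes. Their median log2 fold change was -0.47, against -0.018 over all tested genes, and none was at 0 in any library. The neutrophil gene mpx had 59.5, 68.2 and 86.8 CPM in WT and 37.3, 29.1 and 29.8 CPM in the knockout. The leukocyte actin-bundling gene lcp1 fell from 43.9 ± 4.31 to 25.9 ± 1.32 CPM. The 6 markers not called, added after their values were seen, all overlapped between genotypes. Of them, ptprc, spi1b and lyz had log2 fold changes of 0.017, -0.11 and -0.20. The others, marco, cd74a and cxcr4b, had -0.47, -0.62 and -0.34. In pools of embryos, fewer cells of a type and less RNA per cell cannot be told apart. The part of leukocyte content in the immune core result was not tested.

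Among genes of MHC class I peptide loading and its interferon regulators, 24 were listed and 16 found in the tables. Of the 12 tested, 4 fell and 0 rose (median log2 fold change -0.63), against 9.01% lower and 10.6% higher over all tested genes. The tapasin genes tapbp.1 and tapbp.2, whose products hold class I molecules at the peptide transporter, had the smallest p. The gene tapbp.1 had 3.39, 5.32 and 5.12 CPM in WT and 1.19, 1.31 and 2.15 CPM in the knockout (-1.58 on the log2 scale, SE 0.27, adjusted p = 0.0043, edgeR). The gene tapbp.2 had 4.56, 3.77 and 4.10 CPM in WT and 2.13, 1.83 and 1.57 CPM in the knockout (-1.16, SE 0.18, adjusted p = 0.0025). Genotypes did not overlap for either. Unlike the immune core, neither was highest in WT library 3. The others that fell were b2ml and erap1b. The tapasin-like gene tapbpl overlapped between genotypes and was not called (log2 fold change 0.092, adjusted p = 0.711, edgeR). The interferon signalling gene stat1b had 1.04, 1.71 and 9.87 CPM in WT and 0.993, 0.371 and 0.246 CPM in the knockout, with WT library 3 far above the rest. It was not called (log2 fold change -2.91, SE 1.18, adjusted p = 0.162, edgeR), and its part in the immune core result was not tested. The other interferon genes tested were not called, and their genotypes overlapped. They were stat1a, irf1a, irf1b and ifngr1, with log2 fold changes of 0.13, -0.66, -0.60 and -0.30.

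By gene order in RefSeq on GRCz12tu, an assembly other than that of the counts, so that no coordinates are given, psmb13a, psmb8a, psmb12 and psmb9a stand side by side on chromosome 19, among MHC class I genes. The annotated spans of psmb13a and psmb8a overlap there, and whether reads were counted by strand is not stated in the sources used here, so how reads were divided between them is uncertain. Of the 5 nearest protein-coding genes on each side, a window chosen after the values were seen, 7 were tested. Of these, tapbp.1, tapbp.2, brd2a and col11a2 fell, rxrba rose, and daxx and hsd17b8 did not pass. Over all tested genes 9.01% fell and 10.6% rose, together 19.6%. Among the neighbours looked at farther out on both sides, flot1a and sf3b4 rose and the other tested genes were not called. Both tapasin genes were already counted above among the peptide loading genes. The gene tap2a, next to psmb9a, had 31 counts summed over the libraries and was not tested. The class I genes mhc1uba and mhc1uka had 0 counts in every library. Zebrafish are known to carry alternative haplotypes of this region that differ in their psmb and class I genes; which haplotypes the pools carried was not tested. No proteasome gene lay on the chromosome of bcas2, which is 8 in that assembly.

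The constitutive core and the regulatory particle were expressed well above the immune core. Apart from psma6l, the 35 genes had WT means of 16.6 FPKM (psmd7) to 253 FPKM (psmd3). Their log2 fold changes lay between -0.27 and 0.14, and their 95% intervals all lay within 1.5-fold of no change in either direction. By edgeR 0 of the 35 were called, against 19.6% of all tested genes, and DESeq2 called 1. An unadjusted p under 0.05 by edgeR was found in 4 of the 35, against 34.4%. The summed FPKM of the regulatory particle was 100%, 103% and 103% of that of the core in WT libraries 1, 2 and 3, and 101%, 97.5% and 102% in the knockout.

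The small differences leaned one way. Of the 36 core and regulatory genes, 30 had a log2 fold change below 0, against 11659 of all 22347 tested genes. The median was -0.099 in the core and -0.097 in the regulatory particle, against -0.018 over all tested genes. Over the scalings tried, the core median lay 0.080 to 0.082 below that of all tested genes. A change of scaling shifts all genes nearly alike, so this range cannot test the lean. The genotypes did not overlap in 14 of the 36, against 39.4% of all tested genes. The knockout was lower without overlap in 13 of the 36, against 19.4%. The lean was uneven between libraries: knockout library 1 was the lowest of the 3 knockout libraries for 32 of the 36. Relative to the WT mean, the core had a median log2 ratio of -0.18 in knockout library 1, -0.062 in library 2 and -0.040 in library 3. Without knockout library 1 the core median was -0.036 relative to all tested genes, against -0.080 in the full set. For the regulatory particle it was -0.055 without that library, against -0.078. What sets that library apart was not tested.

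**Figure D3:**
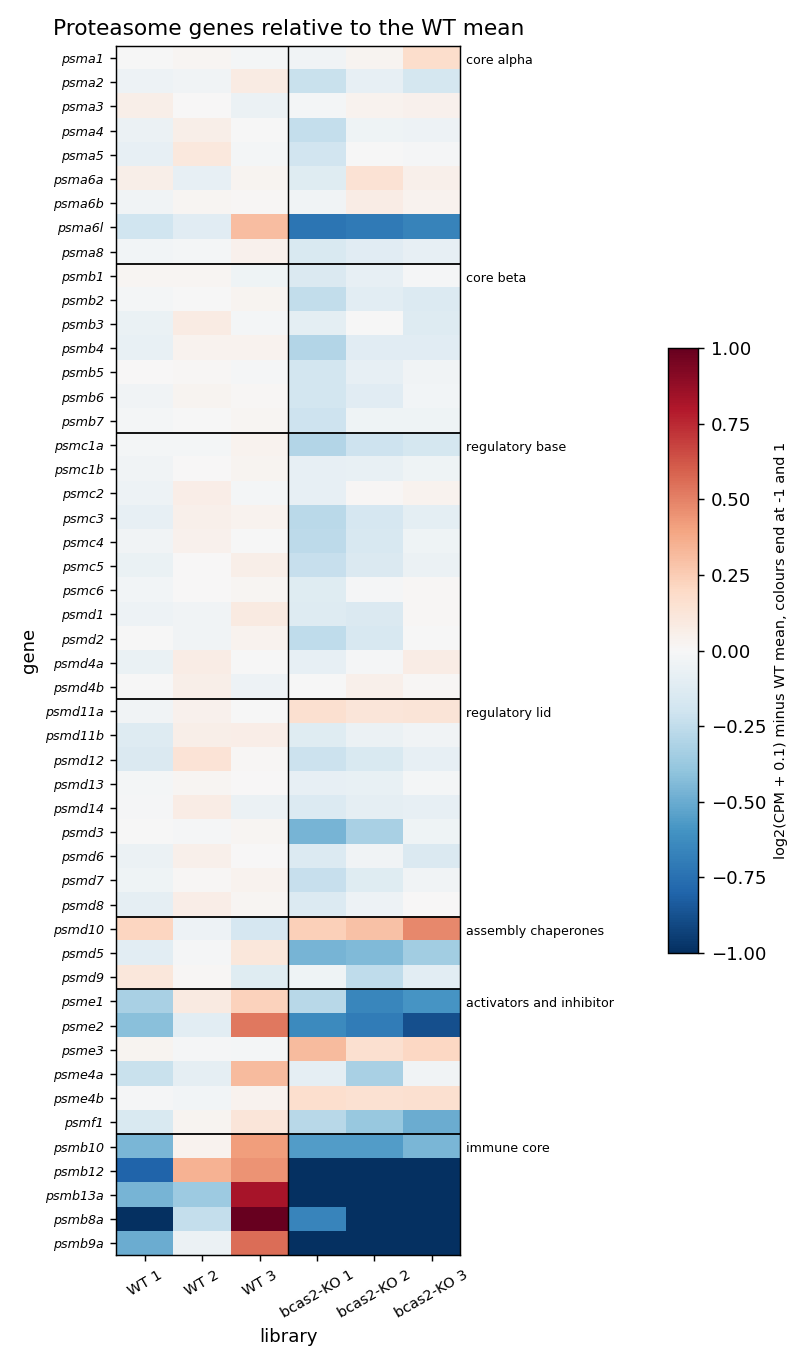
Log2(CPM + 0.1) of each proteasome subunit, activator and chaperone gene (rows) in each library (columns) minus its mean over the 3 WT libraries; colours end at -1 and 1. The core and regulatory rows are pale, except psma6l, with bcas2-KO 1 the bluest column in most of them. The immune core rows are blue in the knockout, palest for psmb10, and red in WT 3. They are also blue in WT 1, where their median is -0.49.

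In the alpha rings, which gate the core, 1 of 9 genes fell, against 9.01% of all tested genes. This was psma6l (ENSDARG00000043899), a rare relative of psma6a, at 4.36, 4.66 and 6.28 CPM in WT and 3.00, 3.04 and 3.14 CPM in the knockout. The genotypes did not overlap, with WT library 3 the highest. By edgeR its log2 fold change of -0.73 (SE 0.17) had an adjusted p = 0.0159, lost without knockout library 1 (0.0641). The main genes of the same subunit were much more abundant, with psma6a at 51.7 ± 2.52 and 52.7 ± 4.80 CPM and psma6b at 39.3 ± 0.752 and 39.9 ± 1.48 CPM in WT and bcas2-KO. Their log2 fold changes were 0.025 each, with 95% intervals of -0.17 to 0.22 for psma6a and -0.14 to 0.19 for psma6b. The next alpha genes by p were psma2 (log2 fold change -0.16) and psma8 (-0.12), for which RefSeq gives psma7 as a synonym, with adjusted p = 0.199 and 0.268 (edgeR).

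In the beta rings, 0 of 7 genes were called by either edgeR or DESeq2 (unadjusted p under 0.05 in 1). Over all tested genes edgeR called 19.6%, with 34.4% at an unadjusted p under 0.05. All 7 beta genes had log2 fold changes below 0, from -0.17 for psmb4 to -0.077 for psmb3. The gene psmb2, for a structural beta subunit, had 88.6, 90.0 and 91.6 CPM in WT and 75.8, 83.5 and 82.0 CPM in the knockout. The gene psmb4, also structural, had 87.8, 94.8 and 94.7 CPM in WT and 75.2, 85.5 and 85.6 CPM in the knockout. In both, the knockout was lower in every library and lowest in library 1, and neither passed (adjusted p = 0.140 and 0.163, edgeR). The gene psmb6, for the caspase-like active site, had 73.0, 76.3 and 75.6 CPM in WT and 66.1, 69.4 and 73.5 CPM in the knockout, with overlap. The active subunits psmb5 and psmb7 had log2 fold changes of -0.0996 and -0.098, with 95% intervals of -0.26 to 0.061 and -0.26 to 0.069.

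In the base, which binds and unfolds substrates, 0 of 11 genes were called by edgeR and 2 had an unadjusted p under 0.05. The shares over all tested genes were 19.6% and 34.4%. The ATPase gene psmc1a was nearest to the threshold, with 96.0, 96.0 and 99.8 CPM in WT and 79.2, 84.2 and 86.2 CPM in the knockout. Genotypes were apart by more than the range within either. By edgeR its log2 fold change of -0.23 (SE 0.071) had an adjusted p = 0.0505, and it passed with DESeq2 (0.0405), upper-quartile factors (0.0205), a replicate block (0.0459), a minimum count of 50 (0.0361) and log2 FPKM (0.0462). It did not pass with RLE factors (0.0517), library totals (0.114), no filter (0.0648), the 4 libraries with low lens and photoreceptor markers (0.0939) or any 1 library left out (0.0588 to 0.178). Its paralog psmc1b, for the same ATPase, had 68.0, 69.6 and 71.0 CPM in WT and 65.6, 66.1 and 67.3 CPM in the knockout (log2 fold change -0.068, 95% interval -0.22 to 0.083). The ATPase genes psmc3 and psmc4 had log2 fold changes of -0.18 and -0.15 (adjusted p = 0.141 and 0.196, edgeR), without overlap of the genotypes. The ubiquitin receptor genes psmd4a and psmd4b had log2 fold changes of -0.0060 and 0.020, with 95% intervals of -0.21 to 0.19 and -0.15 to 0.19.

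In the lid, which removes the ubiquitin chain, edgeR and DESeq2 each called 0 of 9 genes, against 19.6% of all tested genes by edgeR. Of the 9, 1 had an unadjusted p under 0.05, against 34.4% of all tested genes. This was psmd3, for a scaffold subunit and the most abundant proteasome gene by FPKM in WT. It had 210, 209 and 214 CPM in WT and 153, 169 and 205 CPM in the knockout. WT libraries were tight while knockout libraries were spread, with library 3 near the WT level. By edgeR its log2 fold change of -0.27 (SE 0.10) had an adjusted p = 0.102, and it passed without knockout library 3 (0.0295) and in the 4 libraries with low lens and photoreceptor markers (0.0314). The paralogs psmd11a and psmd11b had fold changes of opposite sign. The first had 38.1, 40.2 and 38.9 CPM in WT and 43.6, 42.6 and 42.8 CPM in the knockout, and the second had 70.7, 80.8 and 81.2 CPM in WT and 71.0, 74.2 and 75.7 CPM in the knockout. Neither passed (log2 fold changes 0.14 and -0.075, adjusted p = 0.199 and 0.548, edgeR). The gene psmd12 had a log2 fold change of -0.15 (adjusted p = 0.253).

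Ratios between related genes within a library do not depend on the scaling of libraries. The 16 pairs compared were chosen after the members' values had been seen. The ratio of FPKM did not overlap between genotypes in 9 of them. Of all tested genes 39.4% did not overlap in CPM, and no such share was computed for ratios of other gene pairs. Ratios whose numerator was already called lower, such as psmb9a to psmb6, restate the result of that gene. With 3 against 3 pools the exact permutation test (two-sided) cannot go below p = 0.10, which those 9 reached, and 0.178 is the smallest value after adjustment over the 16. The level of psmc1a as a percentage of psmc1b was 85.3, 83.4 and 84.9 in WT and 73.0, 77.0 and 77.3 in the knockout. That of psmd11a to psmd11b was 62.1, 57.4 and 55.3 in WT and 70.8, 66.2 and 65.2 in the knockout. Neither pair overlapped between genotypes, the ATPase pair being lower and the lid pair higher in the knockout. The ratio of psmd4a to psmd4b (42.5 ± 1.62 and 41.7 ± 2.30) and that of psma6b to psma6a (65.5 ± 4.33 and 65.6 ± 3.64) overlapped. How reads common to both paralogs of a pair were counted is not stated in the sources used here. For psmb9a to psmb6 the percentage was 1.02, 1.37 and 2.20 in WT and 0.160, 0.0776 and 0.274 in the knockout. For psme2 to psme3 it was 17.4, 22.1 and 34.7 in WT and 12.2, 12.9 and 11.03 in the knockout.

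**Figure D4:**
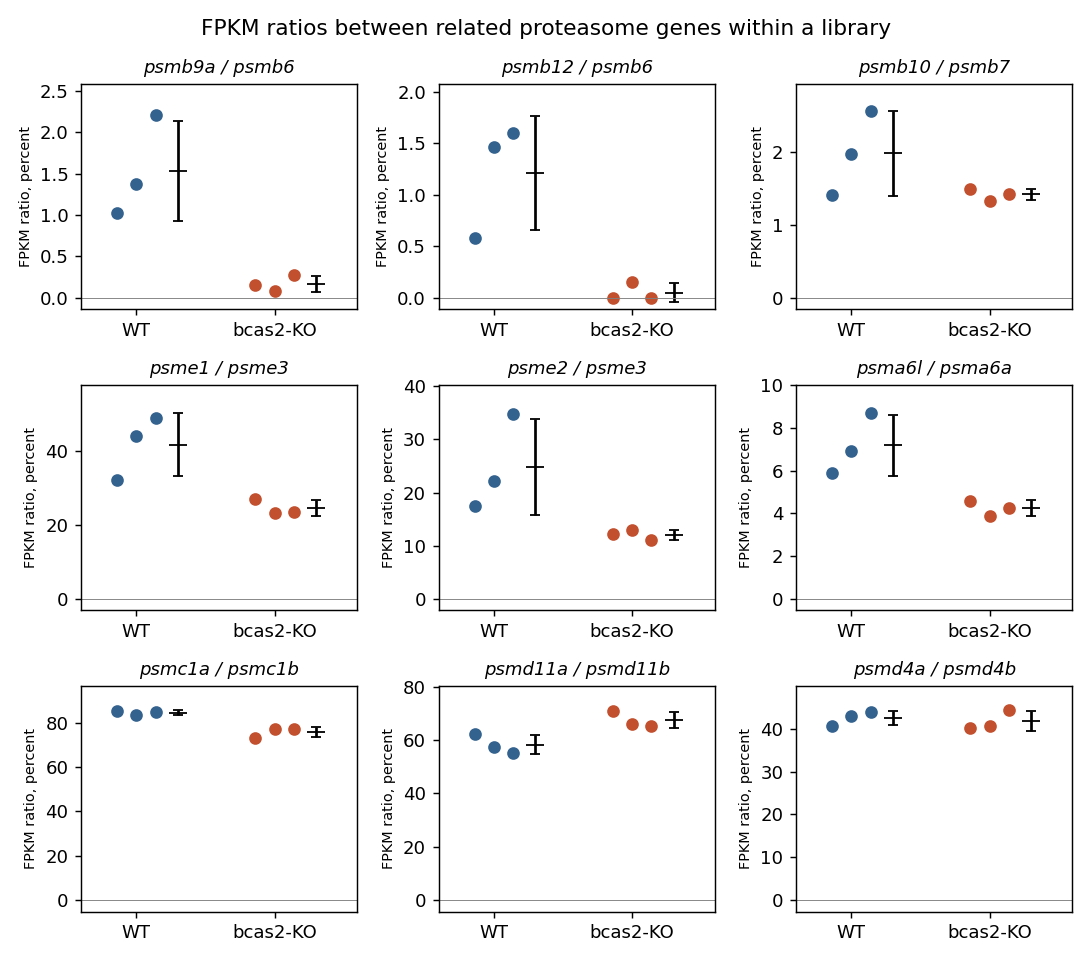
FPKM of one proteasome gene as a percentage of another in the same library (y axes include 0), for 9 of the 16 pairs compared; points are libraries, bars are mean ± SD over 3 pools. The ratio of psmc1a to psmc1b is lower and that of psmd11a to psmd11b higher in every knockout library, while psmd4a to psmd4b overlaps.

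Among the dedicated chaperones that assemble the base, psmd5 fell. It had 19.6, 20.9 and 22.9 CPM in WT and 15.2, 15.5 and 16.6 CPM in the knockout, without overlap. By edgeR its log2 fold change of -0.42 (SE 0.093) had an adjusted p = 0.0134, but not without WT library 2 (0.0517) or knockout library 1 (0.0618). The gene psmd10, for the chaperone gankyrin, had 7.93, 6.56 and 6.04 CPM in WT and 8.04, 8.34 and 9.54 CPM in the knockout, so that every knockout library was higher, WT library 1 only just below. It had the highest log2 fold change of the tested proteasome genes, 0.33, and did not pass (adjusted p = 0.112, edgeR), except without WT library 1 (0.0384). The gene psmd9 had 10.4 ± 0.833 and 9.44 ± 0.728 CPM. Of the core assembly factors outside these symbols, 5 of 7 listed were found. By edgeR 0 of these were called, against 19.6% of all tested genes, with 0 at an unadjusted p under 0.05, against 34.4%. Among these factors psmg1 and akirin2, for a factor that brings proteasomes into the nucleus in human cells, had log2 fold changes of -0.16 and 0.15. The genes psmc3ip and psme3ip1 had log2 fold changes of 0.12 and 0.11 (adjusted p = 0.705 and 0.461).

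Genes for proteins that bind the proteasome or act before it were taken from lists. Over all tested genes 10.6% rose and 9.01% fell. Of 15 genes for associated ubiquitin ligases, deubiquitinases, receptors and shuttles, 4 rose and 2 fell (median log2 fold change 0.049). The ligase gene ube3c, whose product extends ubiquitin chains at the proteasome, had 22.5, 22.6 and 20.6 CPM in WT and 93.7, 96.2 and 88.6 CPM in the knockout, 4.23-fold higher. The proteasome adaptor gene ecpas had 47.4, 50.5 and 49.4 CPM in WT and 65.0, 61.5 and 64.0 CPM in the knockout (log2 fold change 0.37, adjusted p = 0.0072, edgeR). For both, genotypes were far apart, whereas the deubiquitinase gene usp14 and the receptor gene adrm1, chosen after their values were seen, had log2 fold changes of -0.014 and -0.088. Of 12 tested genes for the unfoldase p97 and its cofactors, ubxn7 rose (0.52, adjusted p = 0.0197) and 0 fell, with derl2 at 0.29 (0.0643). Of 15 ubiquitin and conjugation genes, ube2g1b rose (0.25, adjusted p = 0.0457) and 0 fell. In the p97 and ubiquitin lists the shares that rose were 8.33% and 6.67%, below that over all tested genes. The polyubiquitin gene ubc had 631, 684 and 711 CPM in WT and 517, 432 and 609 CPM in the knockout, lower in each library but not called (adjusted p = 0.0534, edgeR).

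Transcription factors of the Nrf1 family drive proteasome subunit genes when proteasome activity is short in mammals. Of 11 genes of this axis, 2 fell and 0 rose (median log2 fold change -0.035), against 9.01% lower and 10.6% higher over all tested genes. The gene nfe2l1a was at 8.77 ± 2.10 CPM in WT and 9.13 ± 1.14 CPM in the knockout. The genes that fell belong to the related oxidative stress pathway. They were nfe2l2b, from 14.4 ± 4.26 to 7.90 ± 0.692 CPM (adjusted p = 0.0263, edgeR), and keap1b, for the adaptor that marks Nrf2 for degradation, from 93.9 ± 12.8 to 72.7 ± 3.22 CPM (adjusted p = 0.0317).

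Other large complexes measured in the same way stood as follows, against 10.6% higher and 9.01% lower over all tested genes. For the CCT chaperonin, which folds actin and tubulin, 3 of 9 genes (cct2 is the symbol of 2) rose and 0 fell, with a median log2 fold change of 0.23, and cct5 and cct8 had 0.28 and 0.24. For the COP9 signalosome, whose subunits are related to those of the lid, 1 of 8 rose (12.5%, close to that background) and 0 fell. Its median log2 fold change was -0.0049, with gps1 at 0.25 and cops7a at -0.20.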

How the data were processed

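RNA sequencing was performed on 6 libraries, 3 per genotype, each from 10 pooled embryos. The authors deposited whole-number counts per Ensembl gene and FPKM values of the same genes. The submitters' processing notes name the build GRCz11 and 5 tools without roles (featureCounts 1.6.0, STAR 2.6.1a, DESeq2 1.22.1, StringTie 1.3.3b, cutadapt 1.15). The annotation release and strand setting are not stated in the sources used here.

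With edgeR 4.0.16, filterByExpr kept genes at a minimum count of 10 (22347 of 32520). These were scaled by TMM and compared by the quasi-likelihood test (two-sided, robust, R 4.3.3), with Benjamini-Hochberg adjustment over all genes. The standard error is the log2 fold change divided by the root of F. A floor of 3 counts is 0.0587 to 0.0923 CPM; counting intervals are exact (95%) and cover counting error only, since reads without molecular identifiers are not independent molecules. Pairs of libraries within a genotype gave 12.4 to 35.6 in a chi-square per degree of freedom, so none was a copy. The test was tested on simulated data before use. There the share of false calls was above the adjusted p threshold, and most changes of 1.5-fold were missed. Only 200 genes were changed there, against 4382 called in the data, so these shares need not carry over to this fit. Calls near the threshold remain uncertain, and a gene not called may have changed by a small amount.

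Members and lists were chosen with earlier results of these data known. Values per library are given for every immune core gene, up to 3 genes with the smallest p of each other class, and paralog pairs. They are also given for the highest and lowest fold change. For each list up to 2 genes are given, except the lens and muscle markers, given as sums. The genes psme3, psmb5, psmb7, b2ml, erap1b, tapbpl, nfe2l1a and nfe2l1b were chosen for the text after their values were seen. So were stat1a, stat1b, irf1a, irf1b and ifngr1. Other members are described by their range. Alternatives were DESeq2 1.42.0, RLE, upper-quartile and total scaling, other filters, a replicate block, each library left out, and limma 3.58.1 on log2(FPKM + 0.1).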

Additional observations from a re-analysis of the deposited data

How the results depend on the processing

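The number of changed genes was 4382, and 1836 to 5098 when 1 library was left out, with 1836 without WT library 2, 2048 without knockout library 1 and 2494 without knockout library 3. Of the proteasome genes 5 fell and 0 rose; with 1 library left out 2 to 8 fell (2 without knockout library 1, 3 without WT library 2, 8 without WT library 1) and 0 to 1 rose (psmd10, without WT library 1). With upper-quartile factors 8 fell, and the regulatory particle median was -0.16 against -0.097. The median of all tested genes moved as well with these factors, to -0.079 from -0.018. These factors gave 39.9% higher among all calls, against 54.1% with TMM factors. An alternative chosen after seeing the data left out the 2 libraries with high lens and photoreceptor markers, WT library 1 and knockout library 3: 8 proteasome genes fell, 5 of them the 5 of the full set, and the immune core median was -4.01 against -3.26 (3 genes, of which 2 passed the filter through WT alone). At a minimum count of 50 only psmb10 of the immune core was left, and that median was -0.59. The calls of psmb9a and psmb12 held in every setting in which they were tested. Each such setting kept genes by counts over all 6 libraries, which both genes passed only through WT. These repeated calls are therefore not separate support.

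Same-numbered libraries of the genotypes deviated with correlations of -0.12, 0.40 and -0.0061, so the numbers were not taken as pairs, and 1 of 3 WT libraries correlated best with its own number. With the replicate block 4922 genes were called and 5 proteasome genes fell, 4 of them shared with the fit without it. For single named genes 435 values kept their side of the threshold, 18 passed it newly, 10 no longer passed and 0 called values changed sign. At these depths the immune core genes other than psmb10 rest on 40 to 139 reads in all.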
